A study of Mus musculus with 8 samples.

Results

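Brown adipocytes are made and kept by a small network of DNA-binding proteins. PPARγ, a nuclear receptor that binds lipids and pairs with RXR, works beside C/EBPα on most fat cell genes, after C/EBPβ and C/EBPδ have started the programme. EBF2, PRDM16 and ZFP516 add the brown features, PPARα and IRF4 act on fatty acid use and on the response to cold, and KLF15 acts on amino acid and lipid use. The 10 genes for these factors, *Pparg*, *Ppara*, *Cebpa*, *Cebpb*, *Cebpd*, *Prdm16*, *Ebf2*, *Klf15*, *Irf4* and *Zfp516*, were chosen by symbol, and all 10 were found among the 33641 genes measured.

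RNA was taken from interscapular brown adipose tissue (BAT) of C57BL/6 mice aged 28 weeks, and 8 poly(A) libraries were compared. The 3 control libraries (A7, A8 and A12) are labelled wild-type, and the 5 others (A24, A25, A26, A29 and A31) are labelled *Adipo-HuR-/-*, a line in which floxed alleles of *Elavl1*, the gene for the RNA-binding protein HuR, are removed by Cre recombinase under the adiponectin promoter. This Cre acts in adipocytes, so other cells of the tissue keep the gene. The controls of the study were littermates that either carried Cre without floxed alleles or carried 1 or both floxed alleles without Cre, and which of these each control library came from, with its sex and diet, is not given in the sources used here. The question was whether the RNA of the factors differs when adipocytes lack HuR.

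Estimated counts summed to 60622522, 51751002 and 50673814 in A7, A8 and A12, and to 18264754, 17558090, 67498055, 50893173 and 58727739 in A24, A25, A26, A29 and A31. A24 and A25 were the shallowest, and the lowest count of any factor in any library was 90, for *Cebpd* in A24. Levels are given as CPM (counts scaled to a common library total) after TMM scaling, which sets libraries against each other by the bulk of their genes.

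*Elavl1* was read first, as the deleted gene. It stood at 50.6, 48.0 and 49.2 CPM in A7, A8 and A12, and at 61.9, 47.3, 43.4, 61.3 and 61.2 in A24, A25, A26, A29 and A31. The libraries labelled *Adipo-HuR-/-* were therefore not lower in total *Elavl1*, with 3 of 5 above and 2 of 5 below every control. The fitted log2 fold change was 0.16 ± 0.16 (SE; edgeR adjusted p = 0.667). These values are RNA summed over all cells of the tissue. The study examined HuR itself as protein, by Western blot of control and *Adipo-HuR-/-* mice, which is a different measure. Groups are named by their labels below, and every direction rests on those labels.

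The 2 libraries A7 and A8 stood apart in another tissue's genes. The 13 skeletal muscle markers summed to 3605, 2331 and 54.5 CPM in A7, A8 and A12, and to 41.2, 30.7, 22.4, 44.5 and 399 in A24, A25, A26, A29 and A31. *Myh4*, a fast myosin heavy chain and the most abundant of them by mean, stood at 1048 CPM in A7, 457 in A8 and 106 in A31, and at 0.113 or less in the other 5 libraries. All 13 had a fitted fold change below 0, and of the 13, 1 passed the test, *Myl1*, a myosin light chain, which was lower in the libraries labelled *Adipo-HuR-/-* (log2 fold change −2.28 ± 0.43, edgeR adjusted p = 0.0474). That call was lost in 13 of 18 other settings of the analysis. In 11 of these the log2 fold change still lay between −2.43 and −1.71. It was −1.12 with the muscle score as a covariate and −0.57 without A7 and A8. Here and below, a fit without A7 and A8 has A12 as its only control. The values of these markers stand beside every comparison of A7 and A8 with the others.

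The tissue carried the RNA of fat cells in every library. The 7 adipocyte markers summed to between 12537 CPM (A25) and 21350 CPM (A8), with *Fabp4*, a fatty acid carrier, the most abundant. *Ucp1*, the uncoupling protein of brown fat and the most abundant of the 11 brown identity genes, stood at 4843, 11438 and 9483 CPM in A7, A8 and A12, and at 10703, 4251, 7636, 7213 and 9475 in A24, A25, A26, A29 and A31. The 5 white adipocyte markers summed to no more than 79.7 CPM (A7). In whole tissue, fewer cells of a type and less RNA per cell cannot be told apart.

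None of the 10 factors passed the threshold, an adjusted p of at most 0.05 with a fold change of at least 1.5, in edgeR's quasi-likelihood test (0 of 10). Of all 14851 genes tested, 105 passed (0.707%). The count was 0 of 10 as well by DESeq2's Wald test, which took 5.54% of all genes tested, and by limma voom, which took 1.06%. At an unadjusted p under 0.05, edgeR took 1 of the 10, *Prdm16*, beside 17.0% of all genes tested (2531). There DESeq2 took *Prdm16* alone as well (18.4% of all genes tested), and limma voom took 3, *Pparg*, *Cebpa* and *Prdm16* (18.6%). With total counts edgeR took 2, *Cebpa* and *Prdm16*, beside 2992 of the 14851 genes tested. The factors divided evenly, 5 with a fitted fold change above 0 and 5 below, and their median log2 fold change was 0.00, as it was over all genes tested (0.00). In CPM the groups overlapped for each of the 10, whereas 11.5% of the genes tested did not overlap.

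**Figure D1:**
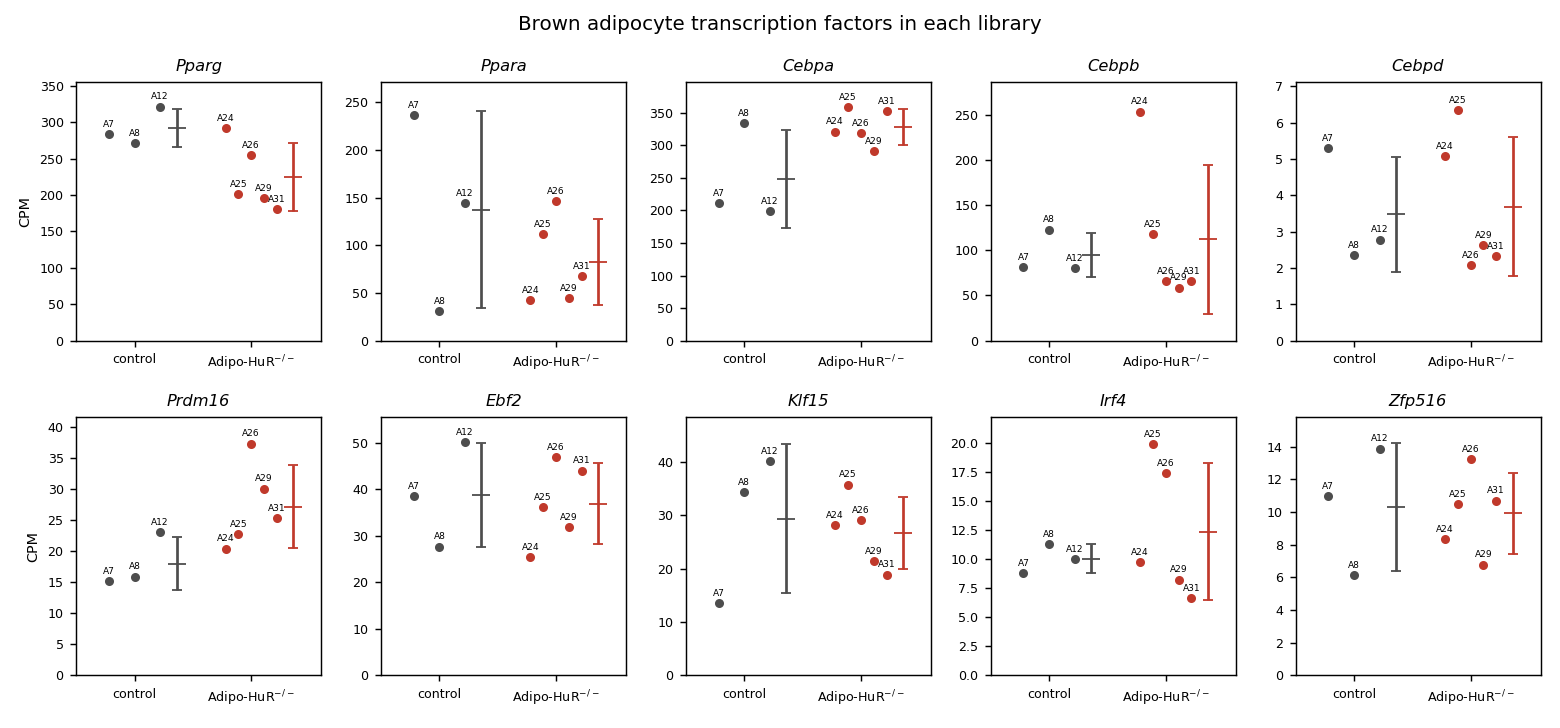
CPM of each of the 10 factors in every library (vertical axes, linear and starting at 0), with points for single libraries and bars for the mean ± SD of the 3 control and the 5 *Adipo-HuR-/-* libraries. The groups overlap in all 10 panels, and *Ppara* spans the widest range, from 31.2 CPM in A8 to 237 CPM in A7.

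*Pparg*, the receptor at the head of the network, lies on chromosome 6 (GRCm38, 115360951 to 115490399, plus strand). It stood at 284, 271 and 321 CPM in A7, A8 and A12, and at 292, 201, 254, 195 and 181 in A24, A25, A26, A29 and A31. Of the 5 libraries labelled *Adipo-HuR-/-*, 4 lay below every control, and A24 lay between A7 and A12. The means were 292 ± 26.2 (SD, n = 3) and 225 ± 47.0 (SD, n = 5), and the fitted log2 fold change was −0.38 ± 0.19 (SE), with a 95% interval of −0.80 to 0.04 (edgeR adjusted p = 0.346). It ran from −0.56 with the muscle score as a covariate to −0.17 with total counts.

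*Ppara*, which drives genes of fatty acid oxidation, lies on chromosome 15 (85734983 to 85802819, plus strand). Its level was 237, 31.2 and 144 CPM in A7, A8 and A12, against 42.5, 112, 147, 44.5 and 67.4 in A24, A25, A26, A29 and A31. The controls alone held both the highest and the lowest library of the 8, 7.59-fold apart. The log2 fold change of −0.73 ± 0.57 (SE; edgeR adjusted p = 0.561) came to −0.09 without A7 and to −1.20 without A8. *Ppara* was also the most variable factor within groups, with an SD of 1.09 in log2 CPM that 4.71% of all genes tested exceeded. The median of that SD was 0.52 over the factors and 0.35 over all genes tested.

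*Cebpa*, the C/EBP of mature fat cells, lies on chromosome 7 (35119293 to 35121928, plus strand). It stood at 211, 335 and 199 CPM in A7, A8 and A12, and at 321, 358, 319, 291 and 353 in A24, A25, A26, A29 and A31. A7 and A12 lay below every library labelled *Adipo-HuR-/-*, while A8 lay among them. The means were 248 ± 75.2 (SD, n = 3) and 328 ± 27.6 (SD, n = 5), with a log2 fold change of 0.40 ± 0.20 (SE; interval −0.04 to 0.85, edgeR adjusted p = 0.338). It came to 0.69 without A8, 0.27 without A12, 0.72 without A7 and A8 and 0.18 with Cebpa-202, its transcript of highest total count, in place of the sum, and the adjusted p lay between 0.0799 and 0.865 over the 18 other settings. By mean CPM the other transcript, Cebpa-201, was as high as Cebpa-202, and it stood at 110 ± 20.02 CPM (SD, n = 3) in controls and at 173 ± 63.8 CPM (SD, n = 5) in the others.

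Per transcript length, as TPM (counts divided by transcript length and scaled to a common total), *Cebpa* was the 1 factor of 10 whose groups did not overlap, at 146, 133 and 113 TPM in A7, A8 and A12, and at 163, 252, 195, 172 and 227 in A24, A25, A26, A29 and A31. Among all genes tested with a known length, 7.74% did not overlap on this scale. TPM carries no TMM scaling. With total counts alone in place of TMM, the median over all genes tested moved to 0.23 on the log2 scale, that of *Cebpa* was 0.68, and the genes past the threshold turned from 69 lower and 36 higher to 25 lower and 96 higher.

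*Cebpb*, an early factor of fat cell formation, lies on chromosome 2 (167688915 to 167690418, plus strand). Its level was 81.3, 123 and 80.5 CPM in A7, A8 and A12, and 254, 118, 65.6, 58.6 and 66.3 in A24, A25, A26, A29 and A31. A24 was the highest library of all, and A26, A29 and A31 lay below every control. The log2 fold change was 0.24 ± 0.46 (SE; edgeR adjusted p = 0.835), and it turned to −0.31 without A24. Over the 18 other settings the adjusted p lay between 0.262 and 0.982. *Cebpb* shares 20.7% of its exon bases with *Tmem189* on the other strand, and whether the counting used strand is not given in the sources used here.

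*Cebpd*, the partner of *Cebpb* in the early phase, lies on chromosome 16 (15887286 to 15891031, plus strand). It was scarce in these libraries, at 5.30, 2.35 and 2.78 CPM in A7, A8 and A12, and at 5.08, 6.36, 2.07, 2.63 and 2.32 in A24, A25, A26, A29 and A31. A7, A24 and A25 were the 3 high libraries, and the other 5 held between 2.07 and 2.78 CPM. A log2 fold change of 0.06 ± 0.43 (SE; edgeR adjusted p = 0.959) was fitted. Here too 15.0% of the exon bases are shared with a gene on the other strand, *Spidr*.

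*Prdm16*, which holds precursor cells to the brown rather than the muscle fate, lies on chromosome 4 (154316125 to 154636873, minus strand). It stood at 15.1, 15.9 and 23.0 CPM in A7, A8 and A12, and at 20.4, 22.7, 37.3, 30.0 and 25.3 in A24, A25, A26, A29 and A31. A7 and A8, the libraries rich in muscle markers, were the lowest, and A12 lay between A25 and A31. The means were 17.98 ± 4.34 (SD, n = 3) and 27.1 ± 6.71 (SD, n = 5). The log2 fold change of 0.60 ± 0.23 (SE) was the largest above 0 among the factors, and its interval of 0.09 to 1.10 is not adjusted for the number of genes (edgeR adjusted p = 0.218). It came to 0.40 with the muscle score as a covariate and to 0.24 without A7 and A8, where A12 is the only control. Without A12, or with total counts, it came to 0.81. With the highest-count transcript, Prdm16-202, it came to 1.12. That transcript has no base of its own beside the other *Prdm16* transcripts. Its level was 0.0633 CPM in A8 and 5.67 CPM or more in every other library. Over the 18 other settings the smallest adjusted p of *Prdm16* was 0.113, with total counts in edgeR.

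*Ebf2*, which opens chromatin at brown fat genes, lies on chromosome 14 (67233292 to 67430918, plus strand). It measured 38.5, 27.6 and 50.2 CPM in A7, A8 and A12, and 25.5, 36.2, 47.0, 31.9 and 44.0 in A24, A25, A26, A29 and A31. The log2 fold change was −0.07 ± 0.24 (SE; edgeR adjusted p = 0.912), or −0.44 without A7 and A8 and 0.16 without A12. *Zfp516*, a zinc finger factor induced by cold that acts on *Ucp1*, lies on chromosome 18 (82910663 to 83005314, plus strand). It ranged from 6.13 CPM (A8) to 13.9 CPM (A12), both of them controls, and the 5 *Adipo-HuR-/-* libraries lay inside that range (log2 fold change −0.06 ± 0.28 SE, edgeR adjusted p = 0.938). Its fold change was −0.48 without A7 and A8, −0.32 without A8 and 0.21 without A12.

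*Klf15*, a Krüppel-like factor that answers to glucocorticoids, lies on chromosome 6 (90462576 to 90475238, plus strand). It stood at 13.6, 34.4 and 40.1 CPM in A7, A8 and A12, and at 28.2, 35.7, 29.1, 21.3 and 18.9 in A24, A25, A26, A29 and A31. The lowest and the highest library were again both controls, and the log2 fold change was −0.14 ± 0.32 (SE; edgeR adjusted p = 0.864). It moved to −0.56 with the muscle score as a covariate, −0.49 without A7, −0.60 without A7 and A8, and 0.15 without A12.

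*Irf4*, an interferon regulatory factor that acts with PGC-1α in brown fat and is also made by lymphocytes, lies on chromosome 13 (30749226 to 30766976, plus strand). It stood at 8.76, 11.3 and 10.01 CPM in A7, A8 and A12, and at 9.70, 19.9, 17.4, 8.22 and 6.63 in A24, A25, A26, A29 and A31. A25 and A26 lay above the rest, and A29 and A31 lay below every control. The log2 fold change was 0.30 ± 0.35 (SE; edgeR adjusted p = 0.712), or −0.06 with the muscle score as a covariate, 0.01 by limma voom, 0.56 with total counts and 0.06 without A25. The 9 macrophage and lymphocyte markers summed to 71.4, 29.2 and 104 CPM in A7, A8 and A12, and to 93.1, 61.0, 61.2, 51.7 and 53.3 in A24, A25, A26, A29 and A31, with *Lyz2* the most abundant. The part of such cells in the *Irf4* level was not tested.

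**Figure D2:**
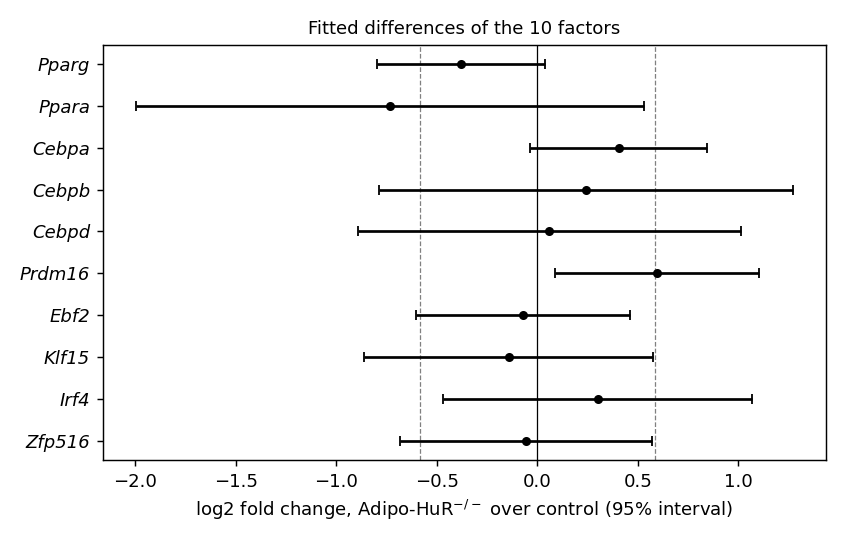
Log2 fold change of each factor, *Adipo-HuR-/-* over control (horizontal axis), with its 95% interval from edgeR, not adjusted for the number of genes, over 3 control and 5 *Adipo-HuR-/-* libraries. Dashed lines mark a fold of 1.5 in either direction, and 9 of the 10 intervals include 0, the exception being that of *Prdm16* (0.09 to 1.10).

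No single library was high or low throughout. A12 held the highest CPM of 4 factors, A25 of 3, and A7, A24 and A26 of 1 each. The lowest values fell in A7, A8 and A31 for 2 factors each and in A12, A24, A26 and A29 for 1 each.

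Per length, the factors came in an order. *Pparg* had the highest mean, 195 TPM over the 8 libraries, followed by *Cebpa* (175), *Cebpb* (94.998), *Ppara* (57.4), *Klf15* (17.4), *Ebf2* (12.2), *Prdm16* (6.26), *Irf4* (3.44), *Zfp516* (1.87) and *Cebpd* (1.40). *Ebf2* lay above *Prdm16*, *Prdm16* above *Irf4* and *Irf4* above *Zfp516* in 8 of 8 libraries. Other neighbours changed places. *Pparg* exceeded *Cebpa* in 3 of 3 controls (means of 218 and 131 TPM) and in 2 of 5 libraries labelled *Adipo-HuR-/-* (181 and 202 TPM). *Cebpa* exceeded *Cebpb* in 7 of 8 libraries, *Ppara* exceeded *Klf15* in 7, *Cebpb* exceeded *Ppara* in 6, *Klf15* exceeded *Ebf2* in 6 and *Zfp516* exceeded *Cebpd* in 6.

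*Pparg* is read from several starts, and these give different proteins. The transcript Pparg-201, whose first exon lies at chr6:115422066-115422192, codes for the 505 residues of PPARγ2, the form of fat cells, while Pparg-204 (first exon chr6:115362292-115362417) and Pparg-202 (first exon chr6:115360951-115361370) code for the 475 residues of PPARγ1. Of the *Pparg* count, Pparg-201 took 25.7%, 56.1% and 41.3% in A7, A8 and A12, and 41.7%, 43.1%, 48.1%, 50.2% and 49.1% in A24, A25, A26, A29 and A31. A7 stood lowest and A8 highest, so that the control range enclosed the *Adipo-HuR-/-* libraries. The level of Pparg-201 was 119 ± 41.1 CPM (SD, n = 3) in controls and 103 ± 17.4 CPM (SD, n = 5) in the others, and both PPARγ1 transcripts together came to 168 ± 46.4 CPM and 118 ± 31.9 CPM. Pparg-204 was the most abundant transcript by mean, although Pparg-201 exceeded it in 5 of 8 libraries. The share of Pparg-204 was 47.7% ± 10.7 (SD, n = 3) and 41.7% ± 5.003 (SD, n = 5; two-sided exact permutation p = 0.375). That difference of −6.04 percentage points came to −0.64 without A7 and to −11.3 without A8.

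**Figure D3:**
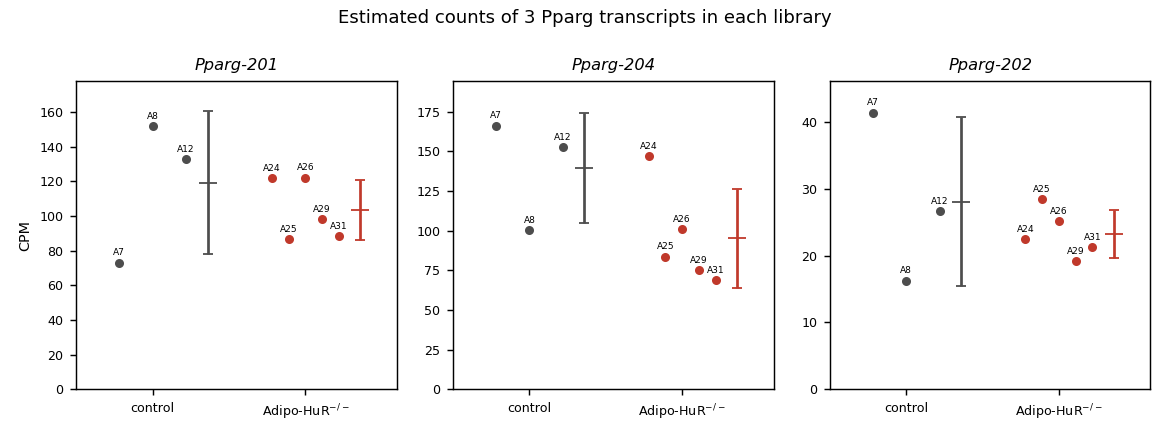
CPM of 3 *Pparg* transcripts in every library (vertical axes, linear and starting at 0), with points for single libraries and bars for the mean ± SD of the 3 control and 5 *Adipo-HuR-/-* libraries. Pparg-201 (PPARγ2) lies between 73.1 CPM (A7) and 152 CPM (A8), and the groups overlap for each transcript.

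The RefSeq promoters that hold the starts of Pparg-204 and Pparg-201, the 2 transcripts with the highest mean, are printed. Promoters on GRCm38.p6, 300 bases around a RefSeq start, were matched by symbol for 7 of the 10 factors, with 3 for *Pparg*. Both strands were searched for TTGCNNAA, a form of the C/EBP motif, which 10.8% of all 32851 promoters hold, and the given strand for TATAAA, which 8.32% hold. The PPARγ2 promoter held 2 matches to the first, in capitals below, and none to the second, and neither of the other *Pparg* promoters held a match to either. The one not shown lies at chr6:115360894-115361193 and holds the start of Pparg-202. The RefSeq start is that of Pparg-201 in the PPARγ2 promoter, but lies 57 bases downstream of the Pparg-204 start, at the start of Pparg-206, and 193 bases downstream of the Pparg-202 start in the others. These are matches of letters only, and binding was not measured.

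Promoter holding the Pparg-204 (PPARγ1) start, chr6:115362099-115362398, plus strand: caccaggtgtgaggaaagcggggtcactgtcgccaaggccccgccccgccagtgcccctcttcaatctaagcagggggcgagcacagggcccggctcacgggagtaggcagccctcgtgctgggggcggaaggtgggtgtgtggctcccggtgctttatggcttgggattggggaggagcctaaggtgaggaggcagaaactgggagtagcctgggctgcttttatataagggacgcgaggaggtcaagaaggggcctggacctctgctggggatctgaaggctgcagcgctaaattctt

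Promoter holding the Pparg-201 (PPARγ2) start, chr6:115421816-115422115, plus strand: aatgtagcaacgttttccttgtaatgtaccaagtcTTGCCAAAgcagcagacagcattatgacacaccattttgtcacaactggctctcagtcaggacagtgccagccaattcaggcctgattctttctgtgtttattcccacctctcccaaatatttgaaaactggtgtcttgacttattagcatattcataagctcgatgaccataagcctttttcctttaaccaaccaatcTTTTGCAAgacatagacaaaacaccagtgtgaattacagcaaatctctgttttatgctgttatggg

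Among the factors, 7 had 2 or more transcripts of at least 1 CPM, and the share of the most abundant one was compared in each by a two-sided exact permutation test, whose smallest possible p here is 0.0179. None of the 7 reached an unadjusted p of 0.05. *Ppara* came mostly from Ppara-202, at 75.3% ± 10.6 (SD, n = 3) and 78.7% ± 2.03 (SD, n = 5; exact permutation p = 0.607). *Ebf2* came mostly from Ebf2-203, at 82.2% ± 11.7 (SD, n = 3) and 75.6% ± 6.36 (SD, n = 5; exact permutation p = 0.321). Several of these shares depend on few bases. Beside the other transcripts of at least 1 CPM, Klf15-204 had 20 bases of its own and Pparg-204 had 57. Cebpa-202 had 10, against 475 for Cebpa-201. Shares of *Irf4* and *Prdm16* depend on fewer still. Irf4-201 and Irf4-202 differ by 3 bases, and A24 had its whole *Irf4* count on Irf4-202, which held 21.0% to 47.9% in the other libraries. Prdm16-202, with no base of its own beside the other *Prdm16* transcripts, took 0.399% in A8 and 25.004% to 52.4% elsewhere.

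HuR binds AU-rich stretches of messages, often in the 3′UTR. The pentamer ATTTA occurred in the 3′UTR of the highest-count coding transcript of 8 of the 10 factors (80%), beside 66.0% of the 13956 tested genes with such a 3′UTR. The median 3′UTR was longer in the factors, at 2178.5 bases against 994.5 bases, and length sets how often a pentamer is found. *Cebpa* and *Cebpb* held 0 pentamers, in 1555 and 506 bases, where 84.4% and 49.5% of the 3′UTRs within 20% of those lengths held at least 1. *Pparg* held 4 in 199 bases, where 24.8% of 3′UTRs of like length held any. *Cebpd* held 7 in 2900 bases and *Zfp516* 9 in 3982 bases. The longer element TTATTTATT occurred in these 2 of the 10 factors (20%), beside 7.37% of the 13956 genes, with 1 copy in *Cebpd* and 2 in *Zfp516*, and 12.9% and 16.1% of 3′UTRs of like length held it. HuR binding was not measured.

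The densest 25 bases of the 2 tails with most pentamers for their length are shown, with ATTTA in capitals.

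*Pparg* 3′UTR, chr6:115490278-115490302, plus strand: aATTTActgtgaaaaagcATTTAaa

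*Cebpd* 3′UTR, chr16:15889228-15889252, plus strand: ggttggacATTTATTTAttgtaaca

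Genes that work with or under the factors were read from 10 lists holding 109 genes, of which 105 were tested. In edgeR 0 of the 105 passed the threshold, beside 0.707% of all genes tested, and 10 (9.52%) had an unadjusted p under 0.05, beside 17.0%. At that unadjusted level DESeq2 took 11, beside 18.4% of all genes tested, and limma voom took 13, beside 18.6%. DESeq2's Wald test took 4 of the 105 past the threshold, with *Gpt*, *Prodh* and *Tbx15* among them, beside 5.54% of all genes tested. By limma voom 0 of the 105 passed, beside 1.06%. Their median log2 fold change was 0.03, with 57 above 0 and 48 below, and the CPM groups did not overlap for 4 of them (3.81%, beside 11.5% of all genes tested).

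Of the PPARγ targets, 11 were tested, 3 with a fold change above 0 and 8 below, and their median was −0.19. *Gpd1*, glycerol-3-phosphate dehydrogenase, was the most abundant by mean (highest in 4 of 8 libraries) at 8049 CPM (A12) to 13438 CPM (A8). *Aqp7*, a glycerol channel, had the highest log2 fold change, 0.35 ± 0.19 (SE; edgeR adjusted p = 0.378), and *Angptl4*, an inhibitor of lipoprotein lipase, the lowest, −0.50 ± 0.38 (SE; edgeR adjusted p = 0.556). *Angptl4* stood at 331 CPM in A7 and between 72.8 and 147 CPM in the other 7 libraries, and its log2 fold change was 0.30 without A7.

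Of the 12 PPARα targets, 5 were above 0 and 7 below, with a median of −0.14. *Hadha*, a subunit of the trifunctional protein of fatty acid oxidation, was the most abundant by mean (highest in 1 of 8 libraries), at 2734, 2895 and 2764 CPM in A7, A8 and A12, and at 2090, 2015, 2416, 2067 and 2086 in A24, A25, A26, A29 and A31. Each control lay above each of the other 5 libraries, and the difference did not pass the test (edgeR adjusted p = 0.269).

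Of the 5 KLF15 targets, 4 were above 0, with a median of 0.42. *Prodh*, which opens proline breakdown, stood at 9.75, 21.0 and 9.61 CPM in A7, A8 and A12, and at 30.2, 28.7, 64.1, 26.2 and 19.0 in A24, A25, A26, A29 and A31 (log2 fold change 1.33 ± 0.41 SE, edgeR adjusted p = 0.140). A31 alone lay below the highest control. *Gpt*, alanine aminotransferase, was chosen after its values were seen, and lay between 35.4 and 58.9 CPM in controls and between 71.9 and 102 CPM in the others (log2 fold change 0.80 ± 0.20 SE, edgeR adjusted p = 0.0887). *Slc2a4*, the insulin-dependent glucose transporter, was the most abundant by mean, and *Acss2*, acetyl-CoA synthetase, was the lowest in fold change (log2 −0.81 ± 0.48 SE, edgeR adjusted p = 0.423), which came to −0.11 without A7 and to 0.66 without A7 and A8. The 6 glucocorticoid response genes had a median of 0.29, from *Zbtb16* (log2 −0.27, or 1.00 without A7) to *Fkbp5* (log2 0.94, or 0.10 by limma voom, 0.58 without A24 and A25 and 1.47 without A7), and *Sgk1* was the most abundant of them by mean (highest in 3 of 8 libraries).

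The brown identity genes had 6 of 11 above 0 and a median of 0.04. *Elovl3*, a fatty acid elongase of brown fat, was highest in log2 fold change at 0.72 ± 0.38 (SE; edgeR adjusted p = 0.366; 0.37 without A7), and *Cidea*, a lipid droplet protein, lowest at −0.24 ± 0.26 (SE; edgeR adjusted p = 0.692). Partners of the factors moved little. The 3 RXR genes had log2 fold changes from −0.19 (*Rxrg*) to 0.24 (*Rxrb*), with *Rxra* the most abundant by mean. The 10 coactivators lay between −0.16 (*Ncoa1*, −0.46 without A7 and A8) and 0.18 (*Med1*). The 8 corepressors had a median of −0.01, with *Nrip1* lowest at −0.41 (−0.79 without A7 and A8). *Ppargc1a*, the gene for PGC-1α and the most abundant coactivator by mean, ranged from 45.0 CPM (A29) to 186 CPM (A12), and *Ncor1* led the corepressors by mean.

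Relatives and other regulators complete the lists. Of the 28 family relatives, 26 were tested, with 15 above 0, 11 below and a median of 0.04. *Cebpg*, the most abundant by mean, was even across libraries at 84.9 to 105 CPM, *Klf2* was highest in log2 fold change (0.73, edgeR adjusted p = 0.166; 0.36 with the muscle score) and *Ebf1* lowest (−0.34, edgeR adjusted p = 0.353). Among 14 other adipocyte factors tested, the median was 0.15. *Tbx15*, a T-box factor of fat depots, stood at 6.20, 6.51 and 2.65 CPM in A7, A8 and A12, and at 1.18, 2.37, 0.845, 1.91 and 2.89 in A24, A25, A26, A29 and A31 (log2 fold change −1.47 ± 0.42 SE, edgeR adjusted p = 0.117). A31 lay above A12 there, so the groups overlapped. The log2 fold change of *Tbx15* came to −0.75 with the muscle score as a covariate and to −0.52 without A7 and A8, its 2 highest libraries. *Hlx* had the highest log2 fold change of that list (0.80, edgeR adjusted p = 0.166; 0.43 without A7 and A8), and *Srebf1* the highest level.

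Markers of other cells gave no other call. The 5 endothelial markers summed to 378 ± 47.6 CPM (SD, n = 3) and 421 ± 88.1 CPM (SD, n = 5). *Cdh5* was the highest of them by mean, and in 3 of 8 libraries. The 5 fibroblast and preadipocyte markers, cells in which *Ebf2* and *Cebpb* are also found, summed to 303, 139 and 422 CPM in A7, A8 and A12, and to 233, 208, 102, 174 and 195 in A24, A25, A26, A29 and A31, led by mean by *Col3a1*. The 4 nerve and Schwann cell markers summed to 36.2 to 59.9 CPM, led by *Mbp*, and the 4 blood markers to 359 to 1146 CPM, led by *Hbb-bs*. The part of these cells in the levels of the factors was not tested.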

How the data were processed

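The authors deposited estimated counts per transcript, not normalized, on GRCm38, for 105129 transcripts. The methods name CLC Genomics Workbench for mapping, and the program that made the deposited estimated counts is not given in the sources used here. Counts were summed by gene symbol and rounded. Genes kept by filterByExpr were scaled by TMM and tested with edgeR 4.0.16 (quasi-likelihood F-test, R 4.3.3), with Benjamini-Hochberg adjustment over all 14851 genes tested. DESeq2 1.42.0 and limma 3.58.1 were alternatives. These tests were tried on counts simulated from the edgeR fit, with 200 genes changed by 2 on the log2 scale. Of these, edgeR recovered 82% with 6 false calls, DESeq2 88% with 39 and limma voom 80% with 6. Transcript shares were compared by two-sided exact permutation over 56 divisions, with scipy 1.17.1. Lengths, starts and 3′UTRs came from GENCODE M21, by transcript identifier. No libraries were duplicates by a chi-square test of counts.

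The factors and the lists were chosen with earlier results of these data known. Named genes are the factors, *Elavl1*, list genes past the threshold, and, from each list, the most abundant gene and, except for marker lists, the highest and lowest fold change. Other names are marked or answer a count. Values of 3 list genes are not reported here.

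Alternatives were other scalings, filters and tests, a muscle marker score as covariate, the top transcript in place of the sum, each library left out, A24 with A25, and A7 with A8. Without A7 and A8 only A12 is left as control, so those values rest on a single control library. Intervals cover the spread between these libraries only. The study's legend gives the group sizes the other way round from the labels, which were followed. Exchanged labels would turn every sign.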

Additional observations from a re-analysis of the deposited data

Results flagged for a closer look

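In the 5 libraries labelled *Adipo-HuR-/-*, 46 sets of values were searched for 1 library far from the other 4, and 5 were found. Chance marks about 1 in 20 such sets, and the 3 controls are too few for the search. A24 had 50.3% of its *Pparg* count on Pparg-204, where the group median was 39.7%. The summed level of the RXR genes was 115 CPM in A29 (median 137 CPM), and that of the other adipocyte factors was 856 CPM in A26 (median 723 CPM). Skeletal muscle markers summed to 399 CPM in A31 (median 41.2 CPM), and macrophage and lymphocyte markers to 93.1 CPM in A24 (median 61.0 CPM). The level of no single factor stood apart in this way, in CPM or in TPM.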

How the results depend on the processing

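With adjusted p alone and under the 18 other alternatives 0 of 10 factors passed, and under these 18 their median log2 fold change stayed within 1 SD of the libraries (0.28). Where the sign turned or the count moved, the cause was not tested. The genes past the threshold among all tested, 105, were 823 by DESeq2's Wald test, 15 with the muscle score, 16 by top transcript, 5 without A24 and A25, 12 without A7 and A8, and 10 to 190 with 1 library left out. *Pparg* and *Ppara* kept a log2 fold change below 0 and *Cebpa* and *Prdm16* one above 0 in every alternative.

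With limma voom, *Cebpb* turned to −0.090 and *Cebpd* to −0.34. Without A24 and A25, *Cebpb* came to −0.59, *Cebpd* to −0.58 and *Ebf2* to 0.074. With total counts, *Ebf2* came to 0.14, *Klf15* to 0.13, *Zfp516* to 0.14, *Cidea* to 0.042, *Rxrg* to 0.055 and *Ncoa1* to 0.054. The muscle score took *Irf4* to −0.063, and the top transcript took *Irf4* to −0.11 and *Zfp516* to 0.021. Without A7 and A8, *Cidea* came to 0.026, *Acss2* to 0.66 and *Zbtb16* to 0.58.

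With 1 library left out, log2 fold changes ran from −0.31 to 0.48 for *Cebpb*, −0.23 to 0.50 for *Cebpd*, −0.26 to 0.16 for *Ebf2*, −0.49 to 0.15 for *Klf15*, −0.32 to 0.21 for *Zfp516*, −0.87 to 0.30 for *Angptl4*, −0.43 to 0.13 for *Cidea*, −0.71 to 1.00 for *Zbtb16* and −0.35 to 0.010 for *Ncoa1*. Differences in share ran from −2.53 to 7.68 percentage points for Ppara-202, −0.433 to 10.7 for Cebpa-201 and −2.06 to 5.53 for Klf15-204. Ebf2-203 alone reached an unadjusted exact permutation p under 0.05, without A7 (−13.4 points, p = 0.0476). That is the smallest p possible without A7, and it was found by looking over the 7 shares with libraries left out in turn. *Cebpd* rests on 90 (A24) to 327 (A7) counts.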
